A study of Mus musculus with 5 samples.

Results

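The 10 genes Vcl, Zyx, Tln1, Flna, Palld, Actn1, Csrp1, Fhl1, Fhl2 and Pdlim7 encode proteins of focal adhesions and actin stress fibres, among them LIM domain proteins. They were chosen by name, with earlier results of these data known. They are 10 of the 19938 genes measured on expression arrays of undifferentiated mouse embryonic stem cells. All 10 had a feature whose array annotation gives exactly 1 gene symbol, and each had only 1 such feature. The cells were C57BL/6 and either wild type (2 arrays) or Mkl2-/- (3 arrays), each array from a separate culture. Both groups grew undifferentiated on gelatin and feeder fibroblasts with fetal bovine serum and the cytokine LIF, and the feeders were taken out by letting them settle on a dish before RNA was extracted. Mkl2, now named Mrtfb, encodes a myocardin-related transcription factor, and the series asks how its loss bears on TGF-beta signalling. The sources used here do not say how many cell lines stand behind each genotype, so p-values measure the spread between cultures.

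Focal adhesions are the plaques through which integrin receptors hold the extracellular matrix and pull on the actin cytoskeleton. Talin binds the integrin tail, vinculin strengthens the link from talin to actin, and filamins, alpha-actinins and palladin crosslink or bundle the actin behind it. LIM domains are paired zinc fingers that bind other proteins, and many LIM proteins sit on adhesions and stress fibres. Myocardin-related factors are held in the cytoplasm by monomeric actin and, once released, act with serum response factor (SRF) at DNA elements called CArG boxes, many of which lie in genes of the actin cytoskeleton.

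Values are log2 expression as deposited, a difference is Mkl2-/- minus wild type, and a fold is that difference on the linear scale. Levels of different genes are not compared, because each feature has its own probes. The Mkl2 gene itself, on chromosome 16, read 9.80 and 9.75 on the wild-type arrays and 9.32, 9.32 and 9.09 on the Mkl2-/- arrays, a difference of -0.53 ± 0.09 (SE, n = 2 and 3; limma adjusted p = 0.048). With 1 array left out it passed only without Mkl2-/- replicate 3 (adjusted p = 0.0381, up to 0.189 in the others). Its other 2 features differed by -0.83 ± 0.07 and -0.98 ± 0.11. No source used here places these features relative to the deletion, so they do not check it. The related factor gene Mkl1, now Mrtfa (0.01 ± 0.015, adjusted p = 0.664), and Srf (-0.16 ± 0.04, adjusted p = 0.0997) did not pass. Across all genes, 1848 (9.27%) passed an adjusted p of 0.05 and are referred to as called, of which 67.7% were lower in Mkl2-/- (56.8% after quantile normalization and 50.9% without wild-type replicate 1). Arrays of a group differed from each other by an SD of 0.080 to 0.111 over all genes, and arrays of different groups by 0.216 to 0.255. A level of 7.30, below which 95% of 1027 olfactory receptor genes had their mean, was taken as background, and all 10 genes lay above it on all 5 arrays.

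All 10 genes were lower on each of the 3 Mkl2-/- arrays than on either wild-type array. Palld, Csrp1, Fhl1, Fhl2, Vcl, Pdlim7, Actn1, Flna and Tln1 fell (9 of 10), and Zyx did not pass the test. The folds ran from 1.10 for Tln1 to 2.66 for Palld, and the median difference was -0.41, against 0.02 for all genes tested. The share of all genes called lower was 6.28%, or 8.78% of the 13564 genes above background. The share of all genes whose groups did not overlap and were lower in Mkl2-/- was 16.7%, or 22.7% of the genes above background. As the 10 genes were chosen with earlier results known, these shares are a description and not a test. In 9 of the 10 genes the gap between the groups was wider than the range within either group, Zyx being the exception. The share of all genes with such a gap was not counted, so this count describes the 10 genes only. In bulk RNA, fewer cells of a type and less RNA per cell cannot be told apart. With 1 array left out, all 10 differences kept their sign, which was fixed beforehand because the groups did not overlap. Without Mkl2-/- replicates 1, 2 and 3 in turn, limma called 1, 2 and 3 of the 10 genes lower. The shares of all genes called lower in these fits were 1.27%, 1.55% and 1.64%. The median difference of the 10 genes was -0.38 without wild-type replicate 1 and -0.44 without wild-type replicate 2. Without wild-type replicate 2 no gene on the array was called, while 4411 genes, all 10 of these included, had an unadjusted p under 0.05.

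**Figure D1:**
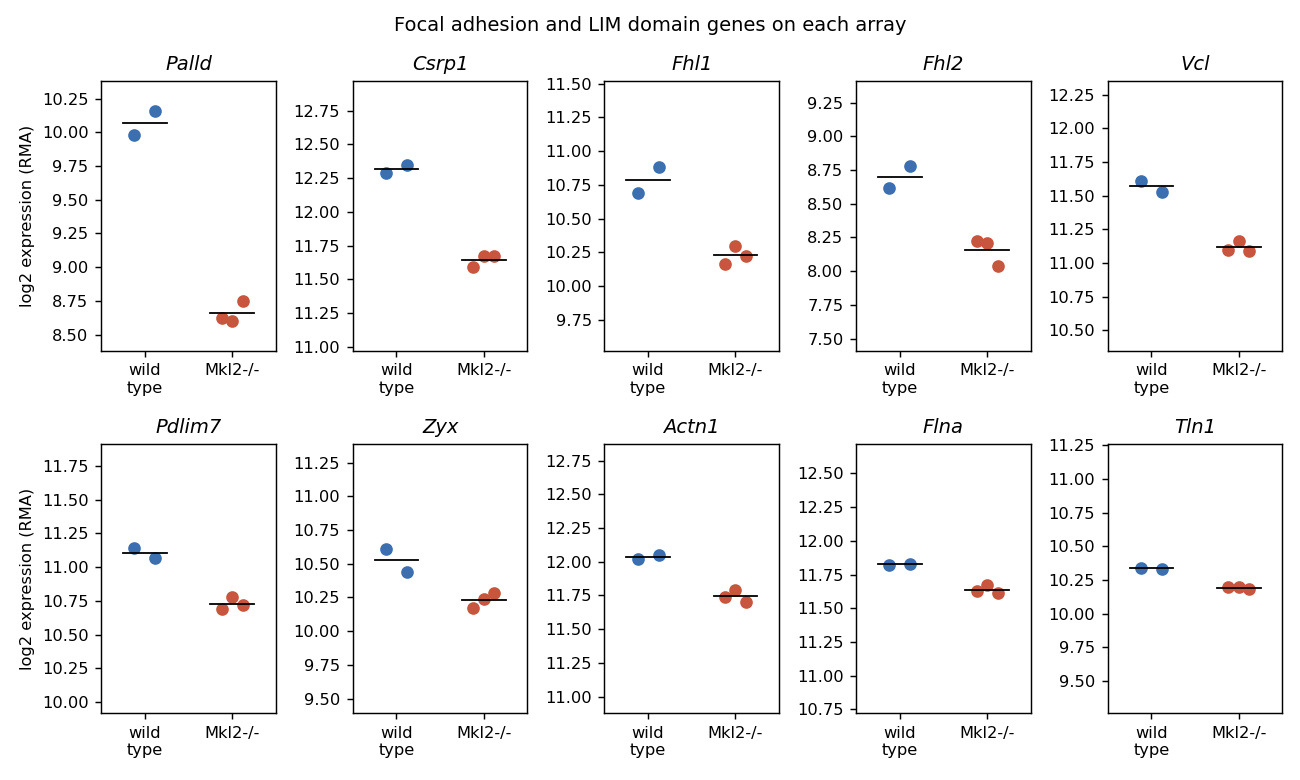
Log2 expression of each gene on the 2 wild-type arrays (blue) and the 3 Mkl2-/- arrays (red), with black bars for group means. Every panel spans the same range of 2 log2 units, so the distances can be compared: the groups are apart in all 10 panels, by 1.23 for Palld and by 0.13 for Tln1.

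**Figure D2:**
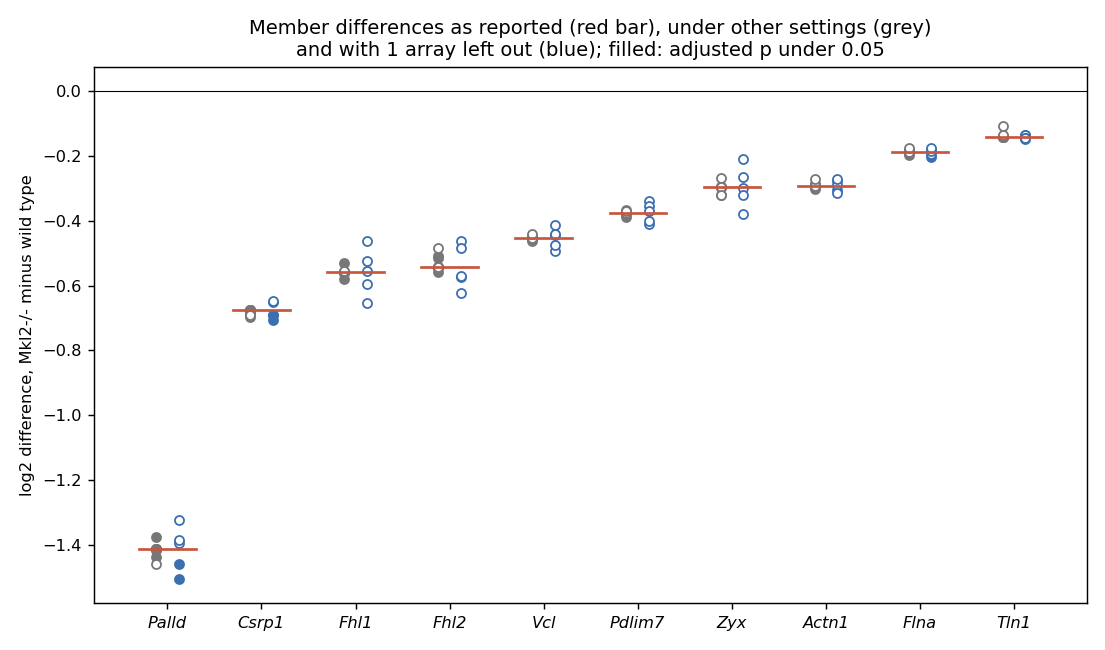
Difference of each of the 10 genes (log2, Mkl2-/- minus wild type) as reported (red bar), under 10 other settings (grey) and with each of the 5 arrays left out (blue); filled points passed an adjusted p of 0.05. Every point lies below 0, which for the blue points was fixed beforehand because the groups do not overlap, and most blue points are open. The differences stay between -0.71 and -0.65 for Csrp1 and between -0.15 and -0.11 for Tln1.

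The genes did not fall by the same amount. Palld had the largest fall, and its 95% interval (-1.64 to -1.19) lay apart from that of the next gene, Csrp1 (-0.78 to -0.57). From Csrp1 down to Tln1, through Fhl1, Fhl2, Vcl, Pdlim7, Zyx, Actn1 and Flna, each gene's interval overlapped that of its neighbour in the order. The 2 ends of that order were apart, since the interval of Tln1 ran from -0.18 to -0.11. Among the 13564 genes above background, 0.214% had a difference as low as that of Palld, 2.15% as low as that of Csrp1 and 17.3% as low as that of Tln1. No array was low throughout: wild-type replicate 2 was above wild-type replicate 1 for 6 of the 10 genes and below it for 4, and Mkl2-/- replicate 3 was the lowest of its group for 5, Mkl2-/- replicate 1 for 4 and Mkl2-/- replicate 2 for 1.

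**Figure D3:**
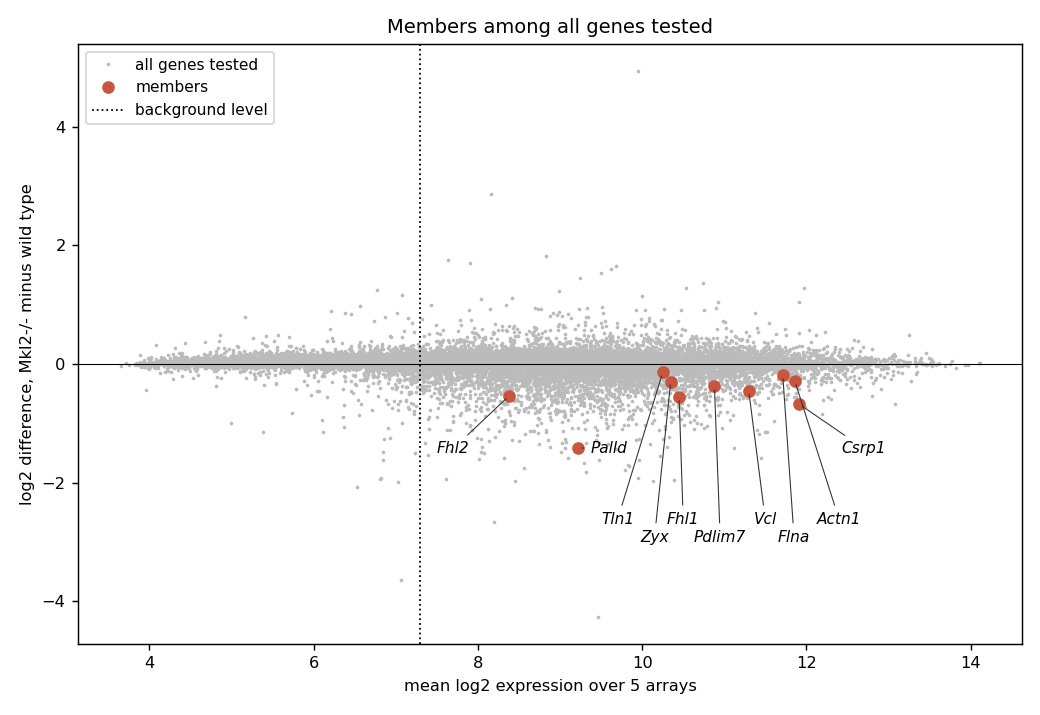
Difference between Mkl2-/- and wild type (vertical axis, log2) against the mean level over the 5 arrays (horizontal axis, log2) for the 19938 genes tested (grey) and the 10 named genes (red); the dotted line is the background level of 7.30. All 10 lie below 0, Palld farthest at -1.41 and Tln1 nearest at -0.14, and all lie to the right of the background level.

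Vcl, Tln1 and Zyx encode proteins of the plaque that joins integrins to actin. Vcl had the lowest difference of these 3, with an interval apart from that of Tln1 but overlapping that of Zyx. It encodes vinculin, which binds talin and actin and strengthens adhesions under load. On chromosome 14, feature 10413059 read 11.61 and 11.53 on the wild-type arrays and 11.10, 11.16 and 11.09 on the Mkl2-/- arrays. Both wild-type arrays were high and the 3 Mkl2-/- arrays lay within 0.07 of each other. The difference was -0.45 ± 0.04, or 1.37-fold lower (adjusted p = 0.0131).

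Since myocardin-related factors work with SRF at CArG boxes, the promoter windows of the 10 genes were searched for that element (CC, then 6 bases that are each A or T, then GG; the pattern is its own reverse complement, so both strands were covered). The windows are those of RefSeq on GRCm38.p6, 250 bases before to 50 bases after each annotated start, and the 10 genes have 15 of them. A CArG box stood in 4 of the 15 windows (26.7%), in the single window of Vcl, 1 of the 2 of Fhl1 and both of Fhl2, against 535 of all 32851 windows (1.63%). By gene this was 3 of 10 against 488 of 27025 genes (1.81%). The windows of Palld, Csrp1, Pdlim7, Actn1, Flna, Tln1 and Zyx did not hold these letters, which says nothing of sites elsewhere. A match is a description of sequence and not evidence of binding. Because the 10 genes were chosen by name, the contrast with all windows is a description and not a test.

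The 250 bases before the start of Vcl, at chr14:20929148-20929397 on the plus strand, are shown because they hold the CArG box (in capitals) of vinculin; it begins 227 bases upstream of the start.
Vcl: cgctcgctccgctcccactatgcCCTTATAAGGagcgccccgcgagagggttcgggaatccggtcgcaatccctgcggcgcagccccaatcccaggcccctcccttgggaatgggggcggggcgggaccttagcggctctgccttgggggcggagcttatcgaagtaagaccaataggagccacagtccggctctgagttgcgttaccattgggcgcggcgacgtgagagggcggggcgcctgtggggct

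Tln1 encodes talin-1, which binds the cytoplasmic tail of beta integrins and switches integrins on. It lies on chromosome 4, and feature 10512514 read 10.34 and 10.33 on the wild-type arrays and 10.20, 10.20 and 10.18 on the Mkl2-/- arrays. The groups were close but did not overlap, and the arrays of each were within 0.02. As the deposited values have 2 decimals, this spread is near the rounding step, and the SE rests on it. The fall was the smallest of the 9 (-0.14 ± 0.012, 1.10-fold, adjusted p = 0.0142) and did not pass after quantile normalization, where it was -0.11 (adjusted p = 0.0925).

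Zyx encodes zyxin, a LIM protein that moves to strained stress fibres and adhesions and recruits actin-assembly factors. Feature 10537770, on chromosome 6, read 10.61 and 10.44 on the wild-type arrays and 10.17, 10.24 and 10.28 on the Mkl2-/- arrays. Wild-type replicate 1 was the high array, and the gap of 0.16 between the groups was about as wide as the 0.17 between the wild-type arrays. The difference of -0.295 ± 0.07 (1.23-fold) did not pass over all genes (adjusted p = 0.0900). It passed after cyclic loess normalization (adjusted p = 0.0407) and when only genes above the median gene were tested (adjusted p = 0.0443).

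Among the actin crosslinkers, Palld fell more than Actn1 and Flna, with 95% intervals that lay apart. Palld encodes palladin, a scaffold with immunoglobulin-like domains that bundles actin in stress fibres and binds alpha-actinin. Feature 10578829, on chromosome 8, read 9.98 and 10.16 on the wild-type arrays and 8.62, 8.60 and 8.75 on the Mkl2-/- arrays. The lowest wild-type array was 1.23 above the highest Mkl2-/- array. The difference was -1.41 ± 0.08, or 2.66-fold lower (adjusted p = 0.0081). RefSeq gives Palld 3 promoter windows, and the feature does not tell which of its transcripts fell.

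Actn1 encodes alpha-actinin-1, the non-muscle crosslinker of antiparallel actin filaments. On chromosome 12, feature 10401244 read 12.02 and 12.05 on the wild-type arrays and 11.74, 11.79 and 11.70 on the Mkl2-/- arrays. The wild-type arrays were within 0.03 and both above all Mkl2-/- arrays. Actn1 fell by 0.29 ± 0.03 on the log2 scale (1.22-fold, adjusted p = 0.0219).

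Flna encodes filamin A, which joins actin filaments into networks and ties them to integrins. The X-linked feature 10605256 read 11.82 and 11.83 on the wild-type arrays and 11.63, 11.67 and 11.61 on the Mkl2-/- arrays. Again the wild-type arrays nearly coincided and the groups were apart. The fall was 1.14-fold (-0.19 ± 0.02, adjusted p = 0.0244).

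The 4 genes of LIM proteins other than zyxin all fell. Csrp1, which encodes cysteine and glycine-rich protein 1, a small protein with a pair of LIM domains that binds alpha-actinin and zyxin, lies on chromosome 1. Feature 10350136 read 12.29 and 12.35 on the wild-type arrays and 11.59, 11.67 and 11.67 on the Mkl2-/- arrays. The arrays of each group lay within 0.08, and the groups 0.62 apart. The fall was 1.60-fold (-0.68 ± 0.04, adjusted p = 0.0079). With 1 array left out, Csrp1 passed in each fit but the one without wild-type replicate 2 (adjusted p = 0.0654, lowest 0.0400).

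Fhl1 and Fhl2 encode four-and-a-half-LIM proteins, built of LIM domains alone, which act as scaffolds at adhesions and in the nucleus. Fhl1 is X-linked, and feature 10599736 read 10.69 and 10.88 on the wild-type arrays and 10.16, 10.30 and 10.22 on the Mkl2-/- arrays. Fhl2 is on chromosome 1, and feature 10354247 read 8.62 and 8.78 on the wild-type arrays and 8.22, 8.21 and 8.04 on the Mkl2-/- arrays. In both genes wild-type replicate 2 was the highest array and no array of the groups overlapped. Fhl1 fell 1.47-fold (-0.56 ± 0.08, adjusted p = 0.0332) and Fhl2 fell 1.46-fold (-0.54 ± 0.085, adjusted p = 0.0420), differences within each other's error. The call on Fhl2 was lost when all 35556 features were adjusted together. Their 250 bases upstream of the start are shown because 3 of the 4 CArG boxes found lie in them, 102 bases before the start in Fhl1 and 96 and 31 bases before the 2 starts of Fhl2 (capitals). The stretches are chrX:56779433-56779682 on the plus strand for Fhl1, and chr1:43196762-43197011 and chr1:43163962-43164211 on the minus strand for Fhl2.
Fhl1: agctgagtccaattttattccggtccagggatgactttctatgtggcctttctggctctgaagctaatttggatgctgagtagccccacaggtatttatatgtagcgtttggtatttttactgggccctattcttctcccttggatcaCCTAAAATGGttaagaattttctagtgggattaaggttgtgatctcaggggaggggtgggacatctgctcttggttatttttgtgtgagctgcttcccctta
Fhl2, first start: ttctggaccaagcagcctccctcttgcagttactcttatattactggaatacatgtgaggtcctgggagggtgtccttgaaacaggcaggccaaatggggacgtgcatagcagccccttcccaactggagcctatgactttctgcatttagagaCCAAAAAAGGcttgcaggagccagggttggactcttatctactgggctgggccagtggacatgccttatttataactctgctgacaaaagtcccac
Fhl2, second start: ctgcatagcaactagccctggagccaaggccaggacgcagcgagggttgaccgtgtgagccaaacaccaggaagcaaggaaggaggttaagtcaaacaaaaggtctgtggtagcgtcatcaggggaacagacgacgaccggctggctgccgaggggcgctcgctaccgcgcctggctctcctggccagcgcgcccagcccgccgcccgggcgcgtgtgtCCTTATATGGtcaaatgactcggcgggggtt
Each box differs from the others in its run of A and T: CCTTATAAGG in Vcl, CCTAAAATGG in Fhl1, and CCAAAAAAGG and CCTTATATGG in Fhl2.

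Pdlim7 encodes a protein with a PDZ domain and LIM domains, also called LMP or enigma, that ties kinases to the actin cytoskeleton. Feature 10409486, on chromosome 13, read 11.14 and 11.07 on the wild-type arrays and 10.69, 10.78 and 10.72 on the Mkl2-/- arrays. The groups were 0.29 apart, and the arrays of each lay within 0.09. Pdlim7 fell 1.30-fold (-0.375 ± 0.04, adjusted p = 0.0191).

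The protein relatives of these genes moved in both directions. Of 28 measured relatives, 5 fell, 6 rose and 17 did not pass, with a median difference of 0.01; over all genes, 6.28% fell and 2.99% rose. The relatives that fell were Pdlim3 (-1.10 ± 0.10, adjusted p = 0.0139), a PDZ-LIM protein of the Z-disc, Flnc (-0.82 ± 0.08, adjusted p = 0.0157), the filamin of muscle, Lpp (-0.605 ± 0.09, adjusted p = 0.0400), the closest relative of zyxin, Actn3 (-0.49 ± 0.03, adjusted p = 0.0087) and Fhl3 (-0.28 ± 0.05, adjusted p = 0.0489). Among the relatives that rose were Crip2 (0.46 ± 0.04, limma adjusted p = 0.012) and Crip1 (0.35 ± 0.03, adjusted p = 0.0109), small LIM proteins. Csrp2 (0.17 ± 0.03, adjusted p = 0.0487) and Pdlim1 (0.26 ± 0.04, adjusted p = 0.0336) also rose. So did Mypn (0.30 ± 0.04, adjusted p = 0.036) and Fhl4 (0.29 ± 0.04, adjusted p = 0.0264). Lpp, Fhl3, Csrp2 and Mypn did not pass when all features were adjusted together. Of the 6 that rose, Mypn lay below the background level on all 5 arrays, and Fhl4 on both wild-type arrays, so no fold is given for either. Without Mkl2-/- replicates 1, 2 and 3 in turn, calls on relatives numbered 4, 1 and 1. Over all genes, calls in these fits numbered 333, 403 and 448.

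Within a family the direction was often not shared. Among the cysteine-rich proteins Csrp1 read lower by 0.68 while Csrp2 read 11.07 and 11.11 on the wild-type arrays and 11.29, 11.26 and 11.22 on the Mkl2-/- arrays, groups that did not overlap in the opposite direction, and Csrp3 (0.04 ± 0.07) did not pass. In the palladin family Palld fell, Mypn rose below background, and Myot (0.09 ± 0.09), also below background on all 5 arrays, did not pass. Of the alpha-actinins, Actn1 and Actn3 fell, Actn4, the other broadly expressed non-muscle form, differed by -0.085 ± 0.02 (adjusted p = 0.138), and Actn2 was listed at 8.68 on all 5 arrays. Tln2, the second talin gene, was likewise listed at 8.58 on all 5 arrays. The 766 genes with such constant values include none of the 10, and a spread cannot be estimated from them. Flnc, at 11.06 and 11.02 on the wild-type arrays and 10.10, 10.32 and 10.25 on the others, fell 1.76-fold against 1.14-fold for Flna. In the FHL family Fhl1, Fhl2 and Fhl3 fell, Fhl4 rose (0.29) from below background, and Fhl5 (0.00) lay below background. Around Pdlim7, Pdlim3 fell from 8.68 and 8.88 to 7.80, 7.63 and 7.61, Pdlim1 rose, and Pdlim2 (-0.06), Pdlim4 (-0.08), Pdlim5 (-0.14) and Ldb3 (-0.01) did not pass. Of the zyxin family, Lpp fell while Trip6 (0.045), Ajuba (0.165), Limd1 (-0.09) and Wtip (0.045) did not pass. The alpha-catenin genes Ctnna1 (0.03), Ctnna2 (0.02) and Ctnna3 (0.03), whose proteins resemble vinculin, did not pass. Of these, Ctnna2 and Ctnna3 lay below background on all 5 arrays. The differences between relatives were not tested. CArG boxes were found in promoter windows of 2 of 21 relatives with windows, Trip6 and Ldb3.

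**Figure D4:**
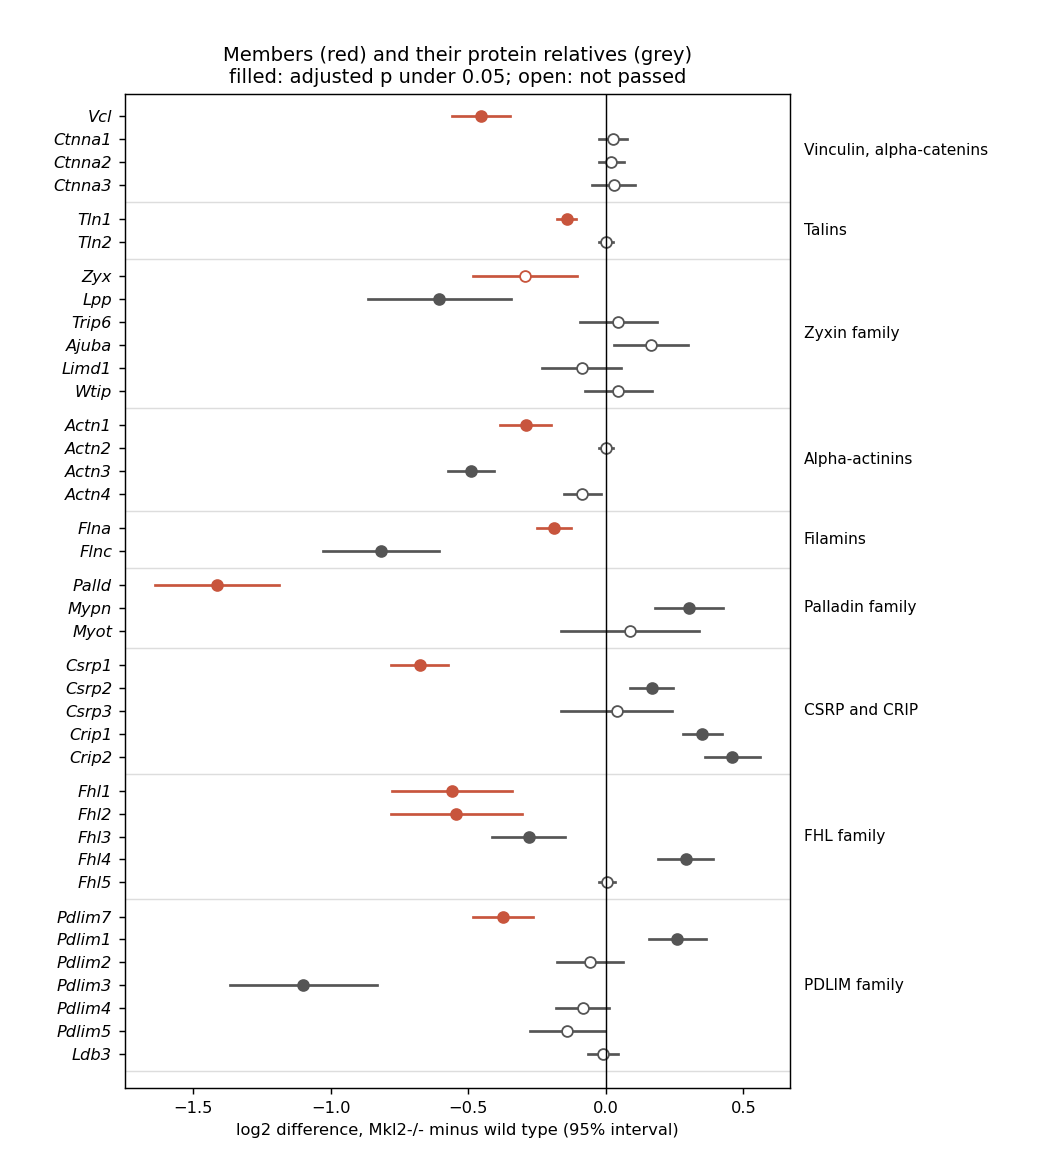
Differences between Mkl2-/- and wild type (log2, points) with 95% intervals from limma (lines) for the 10 genes (red) and their protein relatives (grey), grouped by family; filled points passed an adjusted p of 0.05. The red points all lie left of 0, from -1.41 to -0.14, whereas grey points lie on both sides, from -1.10 for Pdlim3 to 0.46 for Crip2.

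Of 49 other focal adhesion genes measured, mostly adaptors and kinases, 5 fell, 3 rose and 41 did not pass, with a median of -0.03. Over all genes, 6.28% fell and 2.99% rose. Parva, which encodes alpha-parvin, the partner of integrin-linked kinase, fell most: it read 10.35 and 10.53 on the wild-type arrays and 9.56, 9.47 and 9.49 on the Mkl2-/- arrays (-0.93 ± 0.07, adjusted p = 0.0109). Tgfb1i1 (-0.37 ± 0.04, adjusted p = 0.0194), which encodes the LIM protein Hic-5, Crk (-0.14 ± 0.02, adjusted p = 0.0337), an adaptor, Sorbs2 (-0.51) and Kank1 (-0.21) also fell. Hspb1 (0.27 ± 0.03, adjusted p = 0.0191), a small heat shock protein that acts on actin filaments, Ptk2b (0.25) and Fermt1 (0.24), a kindlin gene, rose. The core genes Pxn (-0.01), Bcar1 (-0.02) and Vasp (-0.04) did not pass, and Src was listed at 1 constant value on all 5 arrays. By the ranges of the arrays alone, 20 of the 49 were lower and 7 higher with no overlap between groups, against 16.7% and 16.9% of all genes. Of the 49, 46 had a mean above background, and 22.7% of all genes above background were lower without overlap. Among the 20 that were lower without overlap were Cav1 (-0.75 ± 0.15, adjusted p = 0.0736), the caveolin gene, Nck2 (-0.28 ± 0.05, adjusted p = 0.0632) and Ilk (-0.14 ± 0.04, adjusted p = 0.146), the integrin-linked kinase gene, which did not pass. Leaving out Mkl2-/- replicates 1, 2 and 3 in turn left 333, 403 and 448 of all genes called. Of the 49, these fits called 0, 1 and 1. The count was 13 after quantile and 14 after cyclic loess normalization.

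Of 21 integrin subunit genes, 4 fell and 1 rose, against 6.28% and 2.99% of all genes. Their median was 0.00, and 16 of the 21 had a mean above background. Without overlap between groups, 7 were lower and 3 higher, against 16.7% and 16.9% of all genes and, for lower, 22.7% of genes above background. Itgb1, the beta subunit shared by most integrins and a partner of talin, fell 1.15-fold, from 11.25 and 11.26 to 11.04, 11.05 and 11.06 (-0.205 ± 0.012, adjusted p = 0.0082). Itga5, its partner in the fibronectin receptor, fell by 0.41 ± 0.03 on the log2 scale (adjusted p = 0.0125). Itgb5 (-0.72) and Itgb8 (-0.42), partners of the alpha-v subunit, also fell, and Itgb4 (0.35), the hemidesmosome subunit, rose. Without Mkl2-/- replicates 1, 2 and 3 in turn, calls on integrin genes numbered 1, 2 and 2, beside 333, 403 and 448 over all genes. A CArG box stood in promoter windows of 2 of the 39 other focal adhesion genes with windows (5.13%), Rsu1 (0.16 ± 0.04) and Fermt2 (-0.09 ± 0.02), and of 1 of 16 integrin genes (6.25%), Itgb6, which lay below background. None of these 3 genes passed.

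The 10 genes lie on 8 chromosomes, and some have neighbours that were also lower. For each gene the 10 nearest expressed genes on either side were taken from the RefSeq order. Of all genes above background, 8.78% were called lower. Around Vcl the median of the 20 neighbours was -0.02, around Pdlim7 0.05 and around Flna 0.02, and none of the neighbours was as low as the gene itself. Around Palld the median was -0.12, and 6 of its 20 neighbours were called lower, though none was as low as Palld, the lowest being at -0.79. Around Csrp1 7 of 20 neighbours were called lower (median -0.05), 1 of them lower than Csrp1 itself, and around Fhl2 5 of 20 (median -0.21), with 2 neighbours lower than Fhl2. Both lie on chromosome 1, and the median over its 758 expressed genes was -0.165. The median was -0.05 on chromosome X and between 0 and 0.0108 on the other chromosomes of the 10 genes. Around Fhl1 3 of 20 were called lower, and 2 were lower than Fhl1 itself. Around Tln1, Zyx and Actn1 the medians lay between -0.0042 and 0, but 1 neighbour of Tln1 (-0.54), 1 of Zyx (-0.57) and 2 of Actn1 (down to -0.48) were lower than the gene itself. The part of regional or chromosome-wide shifts in the differences of the 10 genes was not tested.

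**Figure D5:**
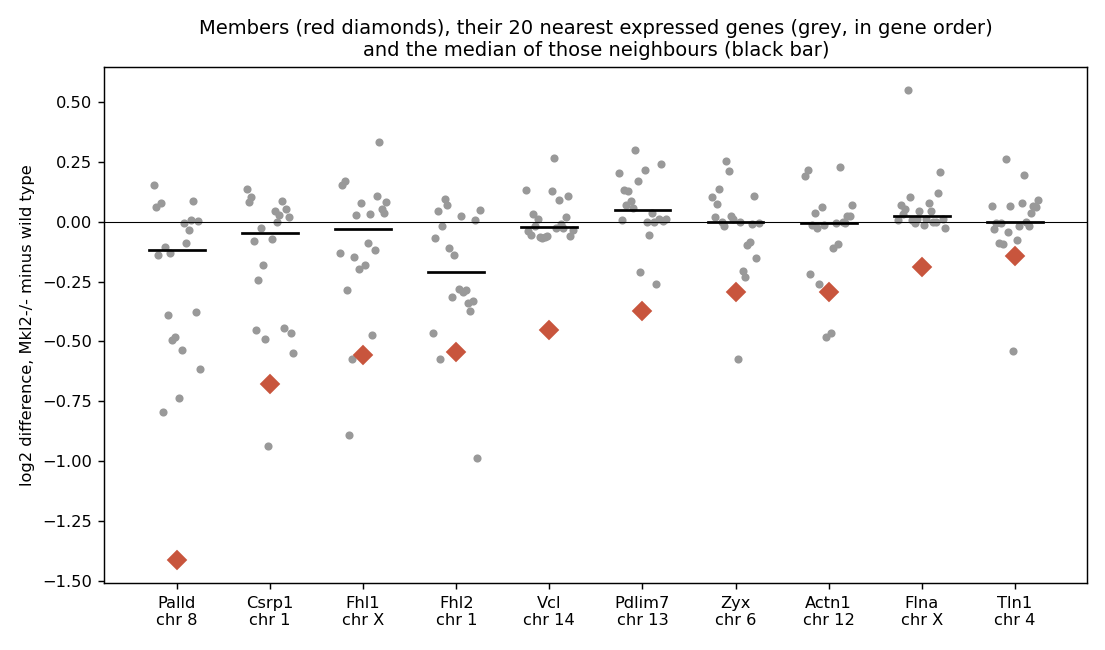
Difference between Mkl2-/- and wild type (log2) for each of the 10 genes (red diamonds), for its 20 nearest expressed genes in gene order (grey points) and their median (black bar), with the chromosome under each name. Vcl, Pdlim7, Flna and Palld lie below all their neighbours, while the neighbours of Palld, Csrp1 and Fhl2 reach -0.79, -0.94 and -0.99.

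Fibroblasts, the feeder cells of both groups, are rich in focal adhesion proteins, so markers of fibroblasts and stem cells were read beside the 10 genes. Of 25 fibroblast markers, 4 fell and 2 rose, against 6.28% and 2.99% of all genes. The mean level of these markers was 8.38 on both wild-type arrays and 8.30, 8.28 and 8.31 in Mkl2-/-. Fstl1 (-0.88 ± 0.06), Mmp2 (-0.26 ± 0.02), Pdgfrb (-0.28) and Sparc (-0.24) fell, and Pdgfra (0.75 ± 0.07) and Twist1 (0.31 ± 0.03) rose. Without overlap between groups, 9 of the 25 were lower and 3 higher, against 16.7% and 16.9% of all genes. Among genes above background, 22.7% were lower without overlap. The 9 markers lower without overlap include Vim (-0.32 ± 0.07, adjusted p = 0.0758), Lox (-0.23), Dcn (-0.195) and Twist2 (-0.19), which did not pass. Of the defining markers, Col1a1 read 9.42 and 9.24 on the wild-type arrays and 9.06, 8.99 and 9.07 on the Mkl2-/- arrays (-0.29 ± 0.07, adjusted p = 0.0901), whereas Col1a2 (-0.08), Col3a1 (0.05) and Thy1 (-0.08) overlapped between groups. Lum, Postn and Fap lay below background on all 5 arrays. The part of residual feeder cells in the falls was not tested. Of 20 stem cell markers 3 fell and 5 rose, beside the same 6.28% and 2.99% of all genes. The mean level of the stem cell markers was 10.7 to 10.8 on all arrays. Pou5f1 (0.03) and Sox2 (0.07) did not pass, Nanog (-1.14 ± 0.07) and Klf4 (-0.69 ± 0.03) were lower, and Nr0b1 (0.485 ± 0.03) and Fgf4 (0.67 ± 0.06) were higher.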

How the data were processed

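Total RNA of 5 cultures was amplified, turned into labelled cDNA and read on Affymetrix whole-transcript arrays, per the labels' protocols. The authors deposited log2 values, which per the submitters' processing notes came from the RMA method of Affymetrix Expression Console 1.1. It corrects background, equalizes array distributions and summarizes a feature's probes, which shrinks differences of dim features. No source used here gives scan dates or batches. The array medians lie between 7.94 and 7.98, and precision is limited by the 5 arrays.

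Of 35556 features, 21789 have exactly 1 symbol, 1621 several and 12146 none; 21698 of the first matched RefSeq (GRCm38.p6) by Entrez identifier, and no symbol changed. The feature with the highest mean stood for each of 19938 genes. The comparison used limma 3.58.1 (lmFit, eBayes) under R 4.3.3 (3 residual and 0.885 prior degrees of freedom, two-sided, Benjamini-Hochberg adjustment over all genes, threshold 0.05); the fit was tested on simulated data. The 10 genes and all lists were chosen with earlier results of these data known. Named are the 10 genes, Mkl2, Mkl1, Srf, all measured relatives, up to 5 further genes of each adhesion list with the smallest p, and up to 4 of each marker list plus defining markers; Sorbs2, Ptk2b, Fermt1, Pxn, Src, Bcar1, Vasp, Pdgfrb, Sparc, Lum, Postn, Fap, Des, Cav1, Nck2, Ilk, Rsu1, Fermt2, Itgb6, Vim, Lox, Dcn and Twist2 fall outside this rule and were chosen after their values were seen. Some genes of the lists, and protein sequences, were not analysed here. Alternatives were quantile and cyclic loess normalization, 2 filters on dim genes, trend and robust variance, no moderation, array weights, averaging a gene's features, all features adjusted together, a replicate block and each array left out. Figures used matplotlib 3.10.9.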

Additional observations from a re-analysis of the deposited data

How the results depend on the processing

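Of the 15 alternatives run, only quantile and cyclic loess normalization could have changed the sign of a difference. In the others the sign was fixed, because each gene has 1 feature and its Mkl2-/- arrays all lay below both wild-type arrays. All 10 differences kept their sign under the 15 alternatives. Csrp1 passed under 13 of them, Palld under 11, Tln1 and Flna under 9, Vcl, Pdlim7, Actn1 and Fhl1 under 8, Fhl2 under 7 and Zyx under 2. With no moderation the counts of calls were 3 of the 10 genes, 1 relative, 0 other focal adhesion genes, 1 integrin and 298 of all genes (3712 at an unadjusted p under 0.05). All features adjusted together gave 7 relatives and 3 other focal adhesion genes. Quantile normalization gave 13 other focal adhesion genes and 2906 genes in all, cyclic loess 14 and 2949, and the filter at background 15 other focal adhesion genes. With 1 array left out, which also leaves fewer residual degrees of freedom, counts ran from 0 to 3 for the 10 genes, 0 to 4 for relatives, 0 to 2 for other focal adhesion genes, 0 to 3 for integrins and 0 to 963 for all genes; a lone wild-type array is assumed to vary like the others. With the replicate number as a block, limma left 1 residual degree of freedom and called 0 genes in every list and 0 overall (3827, and 9 of the 10, at an unadjusted p under 0.05). The numbers do not pair the samples by any label, and deviations of same-numbered arrays correlated at -0.20 and 0.19. The limit throughout is the 5 arrays.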

Other observations

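Of 14 smooth and striated muscle markers, 5 fell and none rose: the calponin gene Cnn1 (-1.54 ± 0.11), the cardiac actin gene Actc1 (-1.10 ± 0.08), the skeletal actin gene Acta1 (-0.69 ± 0.08), the smoothelin gene Smtn (-0.21 ± 0.03) and the desmin gene Des (-0.20 ± 0.03). The list of muscle markers had a median of -0.02, and its mean level was 8.29 and 8.28 on the wild-type arrays and 8.03, 7.99 and 8.09 on the Mkl2-/- arrays. For this list and the next, the shares over all genes were 6.28% called lower and 2.99% called higher. Of 14 endoderm markers, 5 rose and none fell, among them the endocytic receptor gene Cubn (2.87 ± 0.15; under the background level in wild type, so its fitted size is no measure of a fold), Lama1 (1.45 ± 0.08), Gata4 (0.93 ± 0.09) and Gata6 (0.935 ± 0.10), and their mean level was at most 8.09 in wild type and 8.53, 8.57 and 8.71 on the Mkl2-/- arrays.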
